A study of Homo sapiens with 4 samples.

Results

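*IGF1R*, *IGF2R*, *INSR*, *IGFBP2*, *IGFBP3*, *IGFBP4*, *IGFBP5*, *IGFBP6* and *IGFBP7* encode the receptors and binding proteins of the insulin-like growth factor (IGF) system. These 9 genes were taken by symbol from a table of 63677 genes measured by RNAseq in the hepatic stellate cell (HSC) line LX-2, which is human and established. LX-2 cells were transfected with 20 nM of a miR-6133-5p mimic or of a negative control mimic (miControl), and 2 libraries per group were sequenced. In both groups 5 ng/mL of rhTGF-β1 was added 24 h after transfection, and RNA was collected a further 24 h later. The comparison asked which transcripts differ between mimic and control in cells that all received rhTGF-β1, so it holds no untreated cells. LX-2 is a single line, and nothing in the sample descriptions says that the libraries of a group came from separate cultures. The p-values given here therefore measure only the spread between these libraries, which may be technical.

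IGF1 and IGF2 signal through IGF1R, a receptor tyrosine kinase closely related to the insulin receptor INSR, with which it forms hybrid receptors. IGF2R, also called the cation-independent mannose 6-phosphate receptor, carries no kinase: it removes IGF2 from the cell surface and delivers lysosomal enzymes. The IGF binding proteins are secreted and hold IGFs in solution or in the matrix, so they can limit or prolong the access of the ligand to its receptor, and proteases free the ligand by cutting them. Stellate cells and the myofibroblasts they give rise to are sources of several IGF binding proteins in the liver.

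The hairpin from which natural miR-6133-5p is cut is shown for the origin of the miRNA, and the start regions of the 3 member genes that passed the test are shown beside it. The transfected mimic is not this hairpin, and neither was measured in these libraries. The hairpin gene *MIR6133* lies at chr7:133290881-133290988 on the plus strand in GRCh38.p14, and its 108 bases are those of RefSeq, with no part in capitals. RefSeq start regions of GRCh38.p14, from 250 bases before to 50 bases after the start of the gene, were matched for 8 of the 9 members, the exception being *IGFBP7*. The *IGFBP3* window lies at chr7:45921223-45921522 and the *IGFBP5* window at chr2:216695500-216695799, both on the minus strand, and the *IGFBP6* window at chr12:53097417-53097716 on the plus strand. In these 3 windows capitals mark the GC box GGGCGG on either strand and the FOXO element GTAAACA.
MIR6133: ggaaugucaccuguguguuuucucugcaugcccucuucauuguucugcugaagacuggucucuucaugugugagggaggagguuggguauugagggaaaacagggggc
IGFBP3: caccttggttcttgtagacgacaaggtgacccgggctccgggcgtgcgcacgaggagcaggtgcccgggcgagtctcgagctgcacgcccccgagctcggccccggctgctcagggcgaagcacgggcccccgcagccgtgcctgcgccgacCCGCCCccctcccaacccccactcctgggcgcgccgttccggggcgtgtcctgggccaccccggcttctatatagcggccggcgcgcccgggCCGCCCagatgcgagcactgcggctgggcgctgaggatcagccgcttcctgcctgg
IGFBP5: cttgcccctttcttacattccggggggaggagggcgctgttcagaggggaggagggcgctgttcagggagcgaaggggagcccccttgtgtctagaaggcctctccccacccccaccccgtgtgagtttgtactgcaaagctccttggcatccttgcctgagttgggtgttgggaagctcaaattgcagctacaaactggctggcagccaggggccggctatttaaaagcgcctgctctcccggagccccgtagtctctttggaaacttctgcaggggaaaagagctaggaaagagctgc
IGFBP6: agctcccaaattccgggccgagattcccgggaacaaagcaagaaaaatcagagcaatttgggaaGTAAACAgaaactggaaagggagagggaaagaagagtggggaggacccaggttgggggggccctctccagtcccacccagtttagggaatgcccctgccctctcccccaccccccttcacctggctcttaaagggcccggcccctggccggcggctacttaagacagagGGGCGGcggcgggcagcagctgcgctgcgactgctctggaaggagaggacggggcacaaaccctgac

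Motifs were searched on both strands for the TATA box TATAAA, the GC box GGGCGG, the AP-1 element TGANTCA and the FOXO element GTAAACA. The *IGFBP3* window was 74.7% G and C and held the GC box at 2 places, at positions -98 and -6 from the start. The *IGFBP5* window was 59.0% G and C and held none of the 4 motifs. The *IGFBP6* window was 61.7% G and C and held 1 GC box at position -17 from the start and 1 FOXO element at position -186 from it, with no shared bases. Among 27305 windows of the same length, whose median content of G and C was 58.3%, the TATA box was found in 12.0%, the GC box in 44.6%, the AP-1 element in 7.76% and the FOXO element in 3.41%. The matches are descriptions of the letters only.

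Library totals ran from 51862006 to 93811213 counts, and 3 counts corresponded to between 0.0303 and 0.0610 CPM (counts per the usual unit of library size, with totals scaled by TMM). These floors cover counting error only. Mates of a read pair were counted separately, so 3 counts can come from fewer than 3 pairs, and the low counts given below likewise. Of 12 markers of stellate cells and myofibroblasts, 6 were above 1 CPM in every library (*PDGFRB*, *VIM*, *ACTA2*, *COL1A1*, *COL1A2* and *LHX2*), and the other 6, among them *DES*, *LRAT* and *HAND2*, were not. The summed level of the 12 was 4635 to 5111 CPM with miControl and 2776 to 3102 CPM after miR-6133-5p. Of 6 hepatocyte markers 1 was above 1 CPM in every library, with *TTR* at 0, and no endothelial or macrophage marker was, of 4 found for each type, with *LYVE1* and *CD163* at 0. Of 4 cholangiocyte markers, *KRT7* and *SOX9* were above 1 CPM, and the summed level was 83.9 to 85.3 CPM with miControl and 36.8 to 39.9 CPM after miR-6133-5p. The part of these marker levels in the results below was not tested.

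Of the 9 members, 8 had enough counts to be tested, and 3 passed an adjusted p of 0.01 with a log2 fold change beyond 0.8, the thresholds of the study's methods. *IGFBP3* and *IGFBP5* fell and *IGFBP6* rose, whereas *IGFBP4*, *IGFBP7* and the receptor genes *IGF1R*, *IGF2R* and *INSR* did not pass. The 2 of 8 that fell stand beside 5.54% of all 18252 tested genes, and the 1 of 8 that rose beside 2.9%. The groups did not overlap for 6 of the 8 members, beside 64.4% of all tested genes, and nothing is read from this count. The median log2 fold change was -0.14 over the 8 members and 0.03 over all tested genes. *IGFBP3* was listed by the study, and *IGFBP5* was chosen by it as a predicted target, from these same libraries, so their falls are not independent evidence. In a separate experiment the study knocked down its chosen predicted targets by siRNA. It reports that only knockdown of *TGFBR2* lowered both *COL1A1* and *ACTA2* past its own cut.

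**Figure D1:**
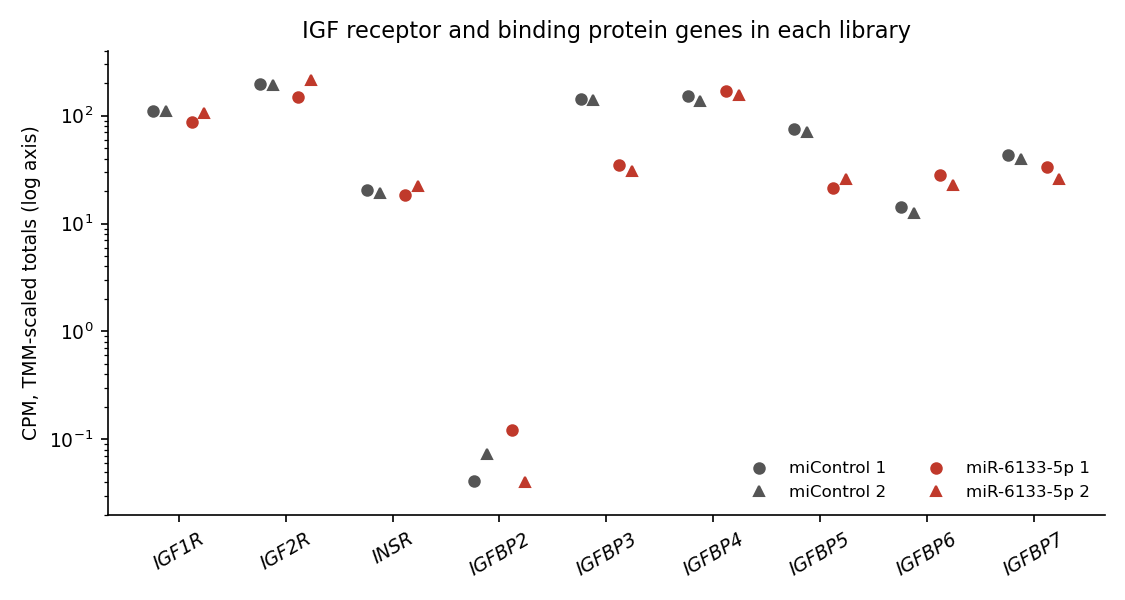
CPM with TMM-scaled totals on a log axis for the 9 genes, with 1 point per library (grey, miControl; red, miR-6133-5p; circles, replicate 1; triangles, replicate 2). The miR-6133-5p libraries lie well below the miControl libraries for *IGFBP3* and *IGFBP5* and above them for *IGFBP6*, and *IGFBP2* lies near the floor of 3 counts.

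*IGFBP3*, the main carrier of IGFs in blood and a protein that also binds cell surface receptors of its own, showed the largest change among the members. Its level was 143.2 and 138.7 CPM in the miControl libraries and 34.6 and 30.8 CPM in the miR-6133-5p libraries. The groups were far apart, and each pair of replicates lay close together. The fold change of miR-6133-5p over miControl was -2.11 on the log2 scale (SE, standard error, 0.109, 95% interval -2.35 to -1.87, adjusted p = 4.43e-08, edgeR), from 141 ± 3.17 to 32.7 ± 2.73 CPM (SD, n = 2). By size of log2 fold change, *IGFBP3* ranked 158 among the tested genes. The gene (ENSG00000146674) lies on the minus strand of chromosome 7 from 45951844 to 45961473 in GRCh37, with no annotated gene overlapping its exons. Its neighbour *IGFBP1*, which ends 18584 bases away, had 0 counts in every library, below the floor of 3 counts.

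*IGFBP5*, a binding protein that attaches to extracellular matrix, was the other member that fell. It stood at 74.7 and 70.8 CPM with miControl and at 21.2 and 25.7 CPM after miR-6133-5p. Both miR-6133-5p libraries were below both miControl libraries. The log2 fold change was -1.63 (SE 0.117, 95% interval -1.88 to -1.38, adjusted p = 4.87e-07, edgeR), from 72.8 ± 2.74 to 23.5 ± 3.14 CPM (SD, n = 2). *IGFBP5* (ENSG00000115461) lies on the minus strand of chromosome 2 from 217536828 to 217560272, and 7.5% of its exon bases are also exon bases of *DIRC3-AS1* on the other strand. *DIRC3-AS1* was far less abundant, at 1.51 and 1.43 CPM with miControl and 0.596 and 0.595 CPM after miR-6133-5p, and also fell (log2 fold change -1.30, standard error 0.309, adjusted p = 0.00632, edgeR). The strand setting of the counting is not given in the sources used here, so reads of the shared bases cannot be assigned with certainty.

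*IGFBP2* (ENSG00000115457), which faces *IGFBP5* on the plus strand of chromosome 2 from 217497551 to 217529159 with 7668 bases between them, was hardly detected. Its counts were 2 and 4 with miControl and 8 and 4 after miR-6133-5p, too few to be tested. No difference in *IGFBP2* was detectable at this depth.

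*IGFBP6*, whose product binds IGF2 in preference to IGF1, moved the other way. Its level was 14.2 and 12.4 CPM with miControl and 28.3 and 22.6 CPM after miR-6133-5p. Both miR-6133-5p libraries were higher than both miControl libraries, although they differed more from each other than the controls did. The log2 fold change was 0.93 (SE 0.135, 95% interval 0.64 to 1.22, adjusted p = 0.000192, edgeR), from 13.3 ± 1.28 to 25.4 ± 3.99 CPM (SD, n = 2). The size of the rise was near the threshold. Without replicate 1 of miR-6133-5p it was 0.75 (adjusted p = 3.87e-05, edgeR), short of 0.8, and a test against a change of 0.8 itself (glmTreat of edgeR) gave an adjusted p of 0.760. *IGFBP6* (ENSG00000167779) lies on the plus strand of chromosome 12 from 53491220 to 53496129.

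*IGFBP4*, a binding protein cut by the protease PAPPA, did not pass the test. It stood at 152.5 and 138.1 CPM with miControl and at 169.7 and 154.4 CPM after miR-6133-5p. The miR-6133-5p libraries were above the miControl libraries by a margin smaller than the spread within either group. Its log2 fold change of 0.16 had a 95% interval of -0.07 to 0.39 (adjusted p = 0.301, edgeR). It was 0.060 without replicate 2 of miControl, 0.071 without replicate 1 of miR-6133-5p and 0.32 (adjusted p = 0.0328, edgeR) with library totals alone. *IGFBP4* (ENSG00000141753) lies on the plus strand of chromosome 17 from 38599702 to 38613977.

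*IGFBP7*, a related secreted protein that binds IGFs weakly and is found in the matrix around vessels, was lower in both miR-6133-5p libraries without passing the test. It stood at 42.9 and 39.8 CPM with miControl and at 33.4 and 26.0 CPM after miR-6133-5p. The log2 fold change was -0.48 (95% interval -0.75 to -0.21, adjusted p = 0.0115, edgeR), short of both thresholds. With library totals alone it was -0.31 (adjusted p = 0.0695, edgeR). The adjusted p passed 0.01 with DESeq2 (-0.49, adjusted p = 0.00372) and with a correction for transcript length (-0.56, adjusted p = 0.00140, edgeR). In edgeR it also passed without a filter on low counts (0.000968), with at least 10 counts in every library (0.00791) and with a replicate block (0.000326). It did not pass with RLE normalization (0.0102) or with counts thinned to the smallest library (0.0187). With a library left out the log2 fold change was -0.68 to -0.32, and no setting brought it to 0.8 in size. *IGFBP7* (ENSG00000163453) lies on the minus strand of chromosome 4 from 57896939 to 57976551, where 13.5% of its exon bases are shared with *POLR2B* and 4.9% with *IGFBP7-AS1*, both on the other strand. *POLR2B*, a subunit gene of RNA polymerase II, was more abundant, at 199.8 and 212.8 CPM with miControl and 307.0 and 297.4 CPM after miR-6133-5p, so reads of the shared bases leave the level of *IGFBP7* uncertain.

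None of the 3 receptor genes passed the test with edgeR, none had an unadjusted p below 0.05, and DESeq2 called none. Of all tested genes, 40.3% had an unadjusted p below 0.05, 5.54% were called lower and 2.9% higher. Nothing is read from a count over 3 genes. *IGF1R* (ENSG00000140443, chromosome 15 from 99191768 to 99507759, plus strand) stood at 109.8 and 110.8 CPM with miControl and at 87.3 and 106.9 CPM after miR-6133-5p. Replicate 2 of miR-6133-5p came close to the controls, and the log2 fold change of -0.18 had a 95% interval of -0.43 to 0.07 (adjusted p = 0.261, edgeR). This value rests on single libraries and on the scaling: it was -0.35 without replicate 2 of miR-6133-5p (adjusted p = 0.00769, edgeR), -0.062 without replicate 1 of miR-6133-5p and -0.019 with library totals alone. *IGF2R* (ENSG00000197081, chromosome 6 from 160390114 to 160534539, plus strand) stood at 195.3 and 193.9 CPM with miControl and at 150.5 and 213.9 CPM after miR-6133-5p. The miR-6133-5p libraries lay on either side of the controls, and the log2 fold change of -0.09 had a 95% interval of -0.40 to 0.21 (adjusted p = 0.672, edgeR). It became 0.12 without replicate 1 of miR-6133-5p, -0.39 without replicate 2 of miR-6133-5p and 0.069 with library totals alone, so no direction is given for *IGF2R*. *INSR* (ENSG00000171105, chromosome 19 from 7112266 to 7294425, minus strand) stood at 20.4 and 19.4 CPM with miControl and at 18.5 and 22.3 CPM after miR-6133-5p. The groups overlapped, and the log2 fold change of 0.04 had a 95% interval of -0.23 to 0.31 (adjusted p = 0.853, edgeR), turning to -0.026 without replicate 2 of miControl and to -0.12 without replicate 2 of miR-6133-5p. These intervals exclude a change of 0.8 in either direction for each receptor gene, but a p above the threshold does not show equal levels.

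**Figure D2:**
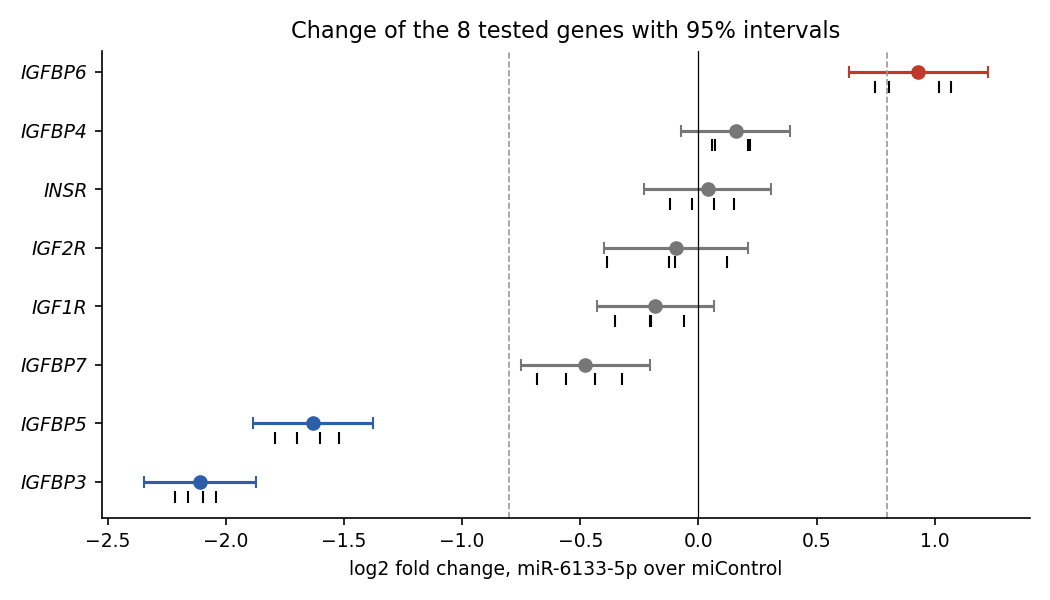
Log2 fold change of miR-6133-5p over miControl (points) with 95% intervals from the edgeR fit for the 8 tested members (blue, fell; red, rose; grey, not past the test). Black ticks give the values with each library left out in turn, dashed lines mark 0.8 in both directions, and 1 tick of *IGFBP6*, at 0.75, lies inside them.

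The ratio of the receptor transcripts within a library does not depend on the scaling between libraries. Per kilobase of the canonical transcript, *IGF1R* was 4.17 and 4.43 times as abundant as *INSR* with miControl and 3.66 and 3.71 times with miR-6133-5p. The ratio was lower in both miR-6133-5p libraries, by -0.22 on the log2 scale, and an exact permutation test (two-sided) gave p = 0.333, the smallest that 2 libraries against 2 allow. The size of such a ratio depends on the lengths used, whereas its log2 difference between the groups does not. All merged exons of *IGF2R* hold 22613 bases against 14061 in its canonical transcript, and those of *IGF1R* 13941 against 12235. With the canonical lengths, *IGF2R* was 1.55 and 1.52 times as abundant as *IGF1R* with miControl and 1.499 and 1.74 times with miR-6133-5p. These values overlapped, with a log2 difference of 0.07 that turned to -0.034 without replicate 2 of miR-6133-5p (exact permutation test with all libraries, p = 1).

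Levels of different genes were set side by side only as CPM per kilobase of the canonical transcript. With miControl the order from the highest was *IGFBP4* (65.9 ± 4.61), *IGFBP3* (53.9 ± 1.21), *IGFBP7* (29.0 ± 1.504), *IGFBP6* (14.1 ± 1.35), *IGF2R* (13.8 ± 0.0718), *IGFBP5* (11.7 ± 0.439), *IGF1R* (9.01 ± 0.0614), *INSR* (2.10 ± 0.0770) and *IGFBP2* (0.0404 ± 0.0164), as mean ± SD with n = 2. Only *IGFBP6* and *IGF2R* overlapped among neighbours in that order. With miR-6133-5p the order was *IGFBP4* (73.5 ± 4.90), *IGFBP6* (26.9 ± 4.22), *IGFBP7* (20.8 ± 3.65), *IGF2R* (12.96 ± 3.19), *IGFBP3* (12.5 ± 1.04), *IGF1R* (7.94 ± 1.13), *IGFBP5* (3.76 ± 0.504), *INSR* (2.15 ± 0.287) and *IGFBP2* (0.0575 ± 0.0410). Here *IGF2R* and *IGFBP3* were the only neighbours that overlapped. With these lengths *IGFBP3* thus stood at place 2 with miControl and at place 5 with miR-6133-5p, while *IGFBP6* moved from place 4 to place 2. Places close to each other depend on the lengths used. All merged exons of *IGFBP6* hold 1346 bases against 947 in its canonical transcript, and those of *IGFBP5* 6466 against 6239. The order was not recomputed with merged exons.

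The summed level of the 6 IGFBP genes per kilobase was 181.0 and 168.1 with miControl and 146.9 and 128.1 with miR-6133-5p, a log2 difference of -0.35. This difference was -0.60 without division by length, -0.18 with library totals alone, -0.77 without *IGFBP4* and -0.23 with the length of all merged exons. *IGFBP3* made up 30.9 ± 0.916% of the sum with miControl and 9.10 ± 0.125% with miR-6133-5p (SD, n = 2). The share of *IGFBP5* was 6.68 ± 0.0966% and 2.76 ± 0.635%. *IGFBP4*, the most abundant member, held 37.7 ± 0.673% and 53.5 ± 1.63%, and *IGFBP6* held 8.06 ± 0.354% and 19.5 ± 1.18%. *IGFBP7* held 16.6 ± 0.00352% and 15.1 ± 1.19%. The share of *IGFBP4* was larger with miR-6133-5p although its own level did not pass the test, since shares of 1 sum move together. The shares also depend on the lengths used, which their SDs do not cover. All merged exons of *IGFBP3* hold 4569 bases against 2613 in its canonical transcript. The shares were not recomputed with merged exons.

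**Figure D3:**
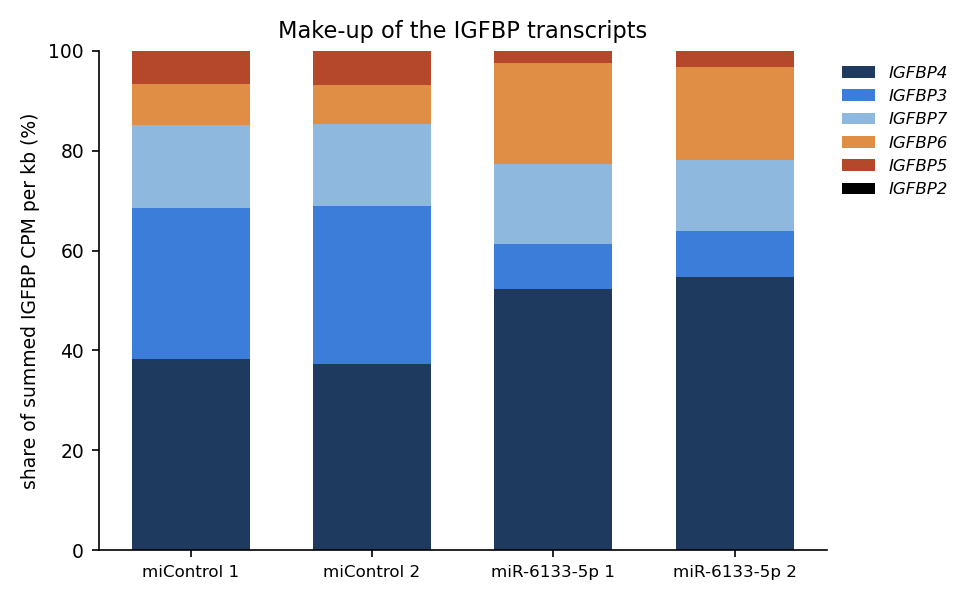
Share of each IGFBP gene in the summed IGFBP level of a library, in percent of CPM per kilobase of the canonical transcript, with 1 bar per library. *IGFBP3* shrinks from about 30.9% to 9.10% between the groups, *IGFBP4* and *IGFBP6* take larger shares with miR-6133-5p, and *IGFBP2* is too small to be seen.

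Among the proteases that cut IGF binding proteins, their inhibitors and cell surface receptors of IGFBP3, 12 genes were listed and 11 tested, of which 3 fell and none rose, beside 5.54% and 2.9% of all tested genes, with a median log2 fold change of -0.25. Only *PAPPA* was called with library totals alone or with the length correction, and no gene of the list with glmTreat. *PAPPA*, the protease that frees IGFs from IGFBP4, stood at 35.7 and 33.5 CPM with miControl and at 12.95 and 16.3 CPM after miR-6133-5p. Its log2 fold change was -1.24 (SE 0.128, adjusted p = 1.04e-05, edgeR), and glmTreat against 0.8 gave an adjusted p of 0.0162. *ADAM12*, a metalloprotease that can cut IGFBP3 and IGFBP5, stood at 157 and 164 CPM with miControl and at 87.3 and 94.1 CPM after miR-6133-5p. The change of -0.82 in log2 (SE 0.103, adjusted p = 5.51e-05, edgeR) came to -0.79 without replicate 1 of miR-6133-5p, short of the threshold, and to -0.66 with library totals alone. *LRP1*, an endocytic receptor that also binds IGFBP3, stood at 302 and 285 CPM with miControl and at 121 and 216 CPM after miR-6133-5p, the latter far apart. Its log2 fold change was -0.80 (SE 0.194, adjusted p = 0.00700, edgeR), and the call was lost without replicate 1 of miR-6133-5p (-0.46, adjusted p = 0.000140), without replicate 1 of miControl (-0.77, adjusted p = 0.102) and without replicate 2 of miControl (-0.87, adjusted p = 0.0367). Without replicate 2 of miR-6133-5p it was -1.30 (adjusted p = 3.10e-13, edgeR) and the call held. DESeq2 did not call *LRP1* (adjusted p = 0.113). Without replicate 1 of miR-6133-5p, 1 gene of this list was called, *PAPPA*.

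At the receptors themselves, 17 substrates, adaptors, phosphatases and inhibitors acting on IGF1R or INSR were listed and 16 tested, of which 1 fell and none rose, beside the same 5.54% and 2.9% of all tested genes, with a median of -0.05. The gene that fell was *IRS1*, the docking protein that both kinases phosphorylate first, which the study also picked out from these libraries. Its level was 174.8 and 164.3 CPM with miControl and 44.2 and 60.7 CPM after miR-6133-5p, with a log2 fold change of -1.69 (SE 0.138, adjusted p = 1.41e-06, edgeR). *IRS2*, the related docking protein, stood at 45.8 and 42.9 CPM with miControl and at 34.6 and 31.3 CPM after miR-6133-5p, and its difference of -0.43 in log2 was short of the threshold of size. *GAB1*, of the same list, went the other way (0.75, adjusted p = 0.000343, edgeR) and was also short of that threshold. *GRB14* had a log2 fold change of -1.72 and failed on its adjusted p (0.0423, edgeR). Its counts were low, at 22 and 16 with miControl and 8 and 10 after miR-6133-5p. Of the 16 tested genes, 9 were below 0 and 7 above.

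Of 8 IGF ligands and further IGF-binding proteins, *IGF1*, *INS*, *IGFBP1* and *IGFBPL1* had too few counts to be tested, and none of the other 4 passed the test in edgeR or DESeq2, with 2 of them at an unadjusted p below 0.05, beside 40.3% of all tested genes, and a median log2 fold change of 0.11. *IGF2*, the ligand of IGF2R, was at 0.142 and 0.330 CPM with miControl and at 0.168 and 0.192 CPM after miR-6133-5p. Transcripts of the ligands were thus scarce in both groups. *ESM1*, a secreted proteoglycan of the wider IGFBP family, had the lowest adjusted p of the 4, with a log2 fold change of -0.71 (adjusted p = 0.00111, edgeR). Its log2 fold change reached -0.83 without replicate 2 of miControl. *IGFALS*, the acid-labile subunit gene, had the largest log2 fold change of the 4, 1.72, and failed on its adjusted p (0.0553, edgeR). Its counts were low, at 3 and 8 with miControl and 19 and 40 after miR-6133-5p.

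All 12 genes listed for mannose 6-phosphate sorting, the route on which IGF2R carries lysosomal enzymes, were tested. None passed in edgeR or DESeq2, 8 had an unadjusted p below 0.05, beside 40.3% of all tested genes, and the median log2 fold change was 0.20. Nothing particular to the list is read from these values. *GNPTAB*, which encodes the enzyme that makes the tag, had a log2 fold change of -0.72 (adjusted p = 0.000140, edgeR), short of the threshold of size.

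Of 15 genes known to be raised by FOXO factors, which insulin and IGF signalling keeps out of the nucleus, 14 were tested, 3 rose and 1 fell, beside 2.9% and 5.54% of all tested genes, with a median log2 fold change of 0.00. The identifier paired with *TXNIP* held 0 counts in every library, which says nothing of its expression, since the table may count the gene under another identifier. *SESN3*, a stress-induced regulator of mTORC1, rose from 10.6 and 12.0 CPM to 40.3 and 42.1 CPM (log2 fold change 1.86, adjusted p = 1.97e-07, edgeR). *BCL2L11*, which encodes the pro-apoptotic protein BIM, rose from 17.8 and 17.8 CPM to 33.4 and 31.4 CPM (0.86, adjusted p = 6.45e-05), with 0.80 and no call without replicate 1 of miR-6133-5p. *PDK4*, an inhibitor of the pyruvate dehydrogenase complex, was low, at 0.244 and 0.330 CPM with miControl and 0.918 and 1.01 CPM after miR-6133-5p (1.74, adjusted p = 0.00477, edgeR). Its call was lost without replicate 1 of miControl (1.53, adjusted p = 0.0668), without replicate 2 of miControl (1.95, adjusted p = 0.0255) and without replicate 2 of miR-6133-5p (1.65, adjusted p = 0.0121). *TRIB1*, a pseudokinase gene, fell from 65.9 and 59.8 CPM to 24.7 and 22.8 CPM (-1.40, adjusted p = 8.92e-07, edgeR).

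**Figure D4:**
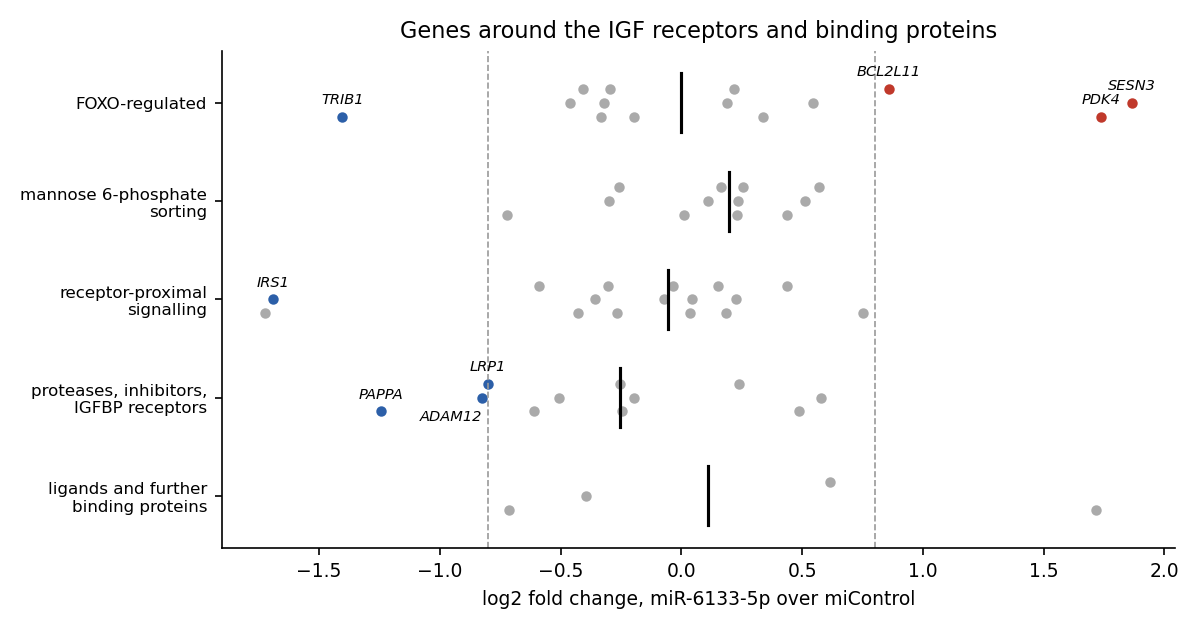
Log2 fold change of miR-6133-5p over miControl for every tested gene of the 5 lists around the IGF system, with 1 point per gene (blue, fell; red, rose; grey, not past the test), a black bar at each list's median and dashed lines at 0.8 in both directions. Named genes are those that passed the test, 5 lower and 3 higher, and a grey point beyond a dashed line failed on its adjusted p.

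The replicates differed from each other with transcript length. Among the tested genes with a canonical transcript (17285 genes, 94.7%), divided by its length into 5 classes of equal size, the median log2 difference of replicate 2 minus replicate 1 of miR-6133-5p went from -0.114 in the shortest class to 0.151 in the longest. For miControl it went from -0.0367 to 0.0507. In the miR-6133-5p libraries the members split by length as well. *IGF1R*, *IGF2R*, *INSR* and *IGFBP5*, all in the longest class, were higher in replicate 2 of miR-6133-5p by 0.29, 0.51, 0.27 and 0.27, and *IGFBP3*, *IGFBP4*, *IGFBP6* and *IGFBP7* were lower there, by -0.17, -0.14, -0.32 and -0.36. In the miControl libraries they did not: 7 of the 8 were lower in replicate 2, *IGFBP5* (-0.077), *INSR* (-0.075) and *IGF2R* (-0.011) among them, and *IGF1R* was at 0.014. With a correction for transcript length, chosen after seeing the data, *IGFBP3*, *IGFBP5* and *IGFBP6* were called as before, and *IGF2R* turned to 0.070.

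**Figure D5:**
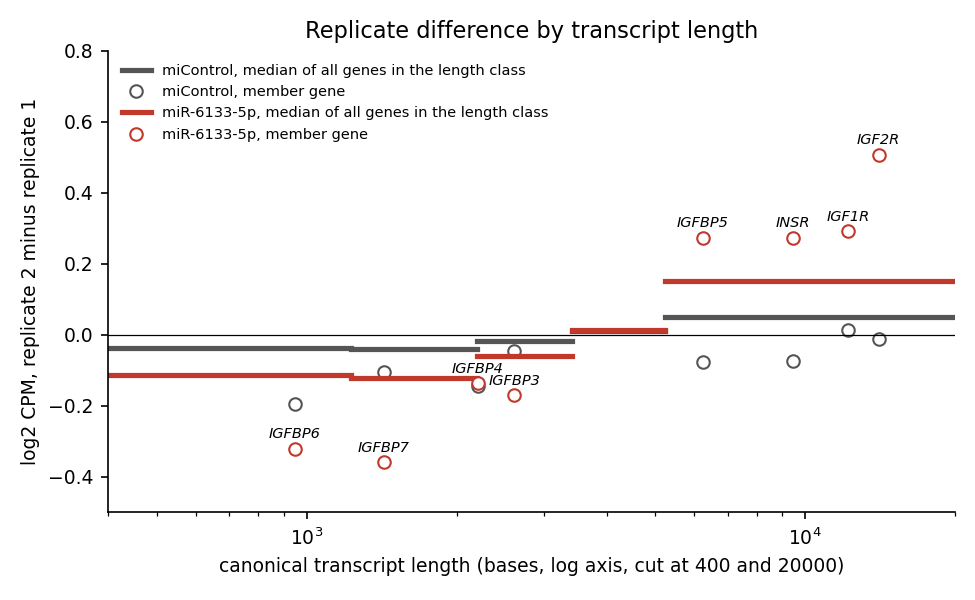
Log2 CPM of replicate 2 minus replicate 1 within each group against the length of the canonical transcript in bases (log axis), with bars for the median of all genes in each of 5 length classes and open circles for the 8 tested members. The miR-6133-5p medians run from -0.114 to 0.151, and the 4 members with the longest transcripts lie above 0 for miR-6133-5p and the other 4 below it.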

How the data were processed

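RNA was poly(A)-selected and sequenced as read pairs. The authors aligned the reads to GRCh37 with STAR 2.5.3a and deposited whole-number counts per Ensembl gene without normalization, counted, per the submitters' processing notes, with featureCounts of Subread 1.6.4. Annotation release and strand setting are not given in the sources used here. The deposited mapping summary holds the fraction of pairs mapped uniquely, 96.52 to 96.76%, and the counts came to 1.68 to 1.70 per such pair, so mates were counted separately.

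Genes passing filterByExpr were TMM-normalized and compared by glmQLFit and glmQLFTest in edgeR 4.0.16 under R 4.3.3, with Benjamini-Hochberg adjustment over 18252 genes. Standard errors were derived from the F statistic. Alternatives were RLE, totals alone, DESeq2 1.42.0, other filters, a replicate block, thinning, each library left out, glmTreat and an adjusted p of 0.05. A length correction and merged exon lengths were added after seeing the data. The edgeR and DESeq2 fits were also run on simulated data of 17794 genes with 200 changed. They found 197 and 195 of these in turn, with 1 false call each. Far fewer genes were changed there than were called in these libraries, so the error rate of the p-values given here is not known from it. Replicates differed beyond sampling noise (chi-square per degree of freedom 13.8 and 52.1). The members and lists were chosen with earlier results of these data known. Named genes are all members and every called gene of a list. Also named are the 3 genes nearest in pattern to the members with the largest fall and rise. List genes near a threshold, *IGF2*, *IGFALS*, *IRS2*, *GAB1*, *GRB14* and overlapping genes were chosen after their values were seen. Positions and lengths of genes are those of GENCODE lifted over to GRCh37. Python 3.11.15, pandas 2.3.3 and matplotlib 3.10.9 were used.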

Additional observations from a re-analysis of the deposited data

How the results depend on the processing

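Of 396 recomputed values, 351 kept their direction and their side of the threshold, or for a count or level lay close to the main value. Part of the 351 was fixed in advance. The settings with glmTreat and with an adjusted p of 0.05 reuse the main log2 fold changes, so no direction could change there. The log2 differences of the receptor ratios cannot change when the division by length is left out. *IGFBP3* and *IGFBP5* were called lower under every alternative run, 2 members each time. The number of members called higher was 0 with glmTreat and 0 to 1 with a library left out. Library totals alone moved the median log2 fold change of all genes from 0.03 to 0.19 and the calls from 1011 lower and 529 higher to 709 and 977, glmTreat gave 326 and 80, and the lowest number of higher calls with a library left out was 293, without replicate 1 of miControl. For the proteases, inhibitors and IGFBP receptors, 1 gene was called with library totals alone, 1 with the length correction, 0 with glmTreat and 1 to 3 with a library left out. For receptor-proximal signalling, 2 genes were called with library totals alone and with the length correction (*IRS1*, and *GAB1* at 0.91 and 0.86 in turn) and 2 at an adjusted p of 0.05 (*IRS1* and *GRB14*). For the FOXO-regulated genes 2 were called with glmTreat (*SESN3* and *TRIB1*) and 3 in each fit with a library left out, and for the ligands 0 to 1. *IGF2R* became 0.069 with library totals alone, 0.070 with the length correction and 0.12 without replicate 1 of miR-6133-5p, in a range of -0.39 to 0.12 with a library left out. *INSR* became -0.026 without replicate 2 of miControl and -0.12 without replicate 2 of miR-6133-5p, in a range of -0.12 to 0.15, and the log2 ratio of *IGF2R* to *IGF1R* became -0.034 without replicate 2 of miR-6133-5p, in a range of -0.034 to 0.18. The log2 difference of the summed IGFBP level, -0.35, was -0.60 without division by length, -0.18 with library totals alone, -0.77 without *IGFBP4* and -0.45 to -0.25 with a library left out. The cause of these shifts was not tested.

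Across genes, which are not independent replicates, the replicate differences of same-numbered libraries were nearly uncorrelated (r = 0.05). Their medians nevertheless rose from the shortest to the longest class of transcripts in both groups. One correlation across genes cannot show whether the numbers pair the libraries, and the labels do not say. With a replicate block, 1130 genes were called lower and 642 higher, and among the members 2 and 1, the same genes as without it. Matches to the miR-6133-5p seed were not run. With 2 libraries per group no exact test can go below p = 0.333, and single outlying libraries could not be tested.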

Other observations

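The genes whose pattern over the 4 libraries was most like that of *IGFBP3* were sought among the 9566 genes whose mean log2 CPM reached 3, by the Euclidean distance of log2 CPM centred on each gene's own mean. They were *HAS2*, which encodes a hyaluronan synthase, at a distance of 0.108, *NABP2*, which encodes a single-stranded DNA binding protein, at 0.112, and *LEF1*, a transcription factor of the Wnt pathway, at 0.122. Their log2 fold changes were -2.10, -2.10 and -2.15. The genes most like *IGFBP6* were *PSMB9*, a subunit gene of the immunoproteasome, at a distance of 0.0565, *REEP4* at 0.0890 and *C1D* at 0.0899, with log2 fold changes of 0.94, 1.01 and 0.92. With 4 libraries in 2 groups, such a distance is set mostly by the size of the difference between the groups.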
